A study of Mus musculus with 16 samples.

Results

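Skeletal muscle and heart shared 1379 regions of open chromatin that none of the other 6 tissues showed, out of 760105 merged regions in the whole series. The members were chosen by measured values: the peaks with a q-value under 0.01 of all 16 peak lists were merged where they overlapped by at least 1 bp, and a merged region was kept when it held such a peak in all 4 muscle and heart libraries and no deposited peak of the other 12 libraries touched it. Its presence in muscle and heart and its absence elsewhere are therefore the rule and not a result. No test was run, because each tissue and state had 1 library and the members were picked on these peaks.

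ATAC-seq, which uses the transposase Tn5 to cut and tag DNA that is not packed away, was applied to liver, skeletal muscle, brown adipose tissue, white adipose tissue, spleen, heart, lung and kidney of male C57BL/6 mice. The mice were either fed or fasting for a day and a night, and the labels name no other allele or agent. Each of the 16 libraries came from tissue powder pooled over the mice of a state, so the values have no replicate error. Whole tissue holds vessel, nerve, immune and connective cells beside muscle fibres or cardiomyocytes, and a higher share of cells with an open region cannot be told apart from a more open region per cell.

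The deposited lists were of near-equal length (298996 to 299529 rows, 149835 to 239804 distinct regions, of which 131688 to 225899 passed q under 0.01), so they reflect a fixed list length as well as the tissue. The lists of 7 of the 12 other libraries ended inside the q threshold, at −log10 q between 2.04 and 5.26, so a weak peak there could not be seen and absence means absence from the list. At the promoters of the marker genes, Myh1 (a fast myosin heavy chain) ranked 67.2 and 75.9 in fed and fasting muscle and had no peak in heart, but it had one in fed liver at 43.4. Myh6 (the atrial and adult mouse ventricular myosin) ranked 91.3 and 76.3 in heart and 27.1 and 0 in muscle, and was also listed in liver (54.7 and 36.1), fasting brown adipose tissue, fed spleen and both kidney libraries at lower ranks than in heart. Further markers were less selective: Mylpf and Ryr2 had promoter peaks in every library, and Nppa, a heart hormone gene, was listed in spleen at 73.6 and 59.2 against 65.7 and 47.0 in heart.

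Striated muscle cells contract through the sarcomere, in which myosin pulls on actin along the giant spring protein titin, and calcium released from the sarcoplasmic reticulum starts each contraction. Skeletal fibres and cardiomyocytes arise from different parts of the mesoderm and use partly separate myosins, troponins and regulators, yet they share much of this machinery. MEF2 factors, which bind an A and T rich site, drive muscle genes in both; MYOD family factors bind E-boxes in skeletal muscle, TEAD factors bind the MCAT element, GATA factors act in heart, and estrogen-related receptors act on genes of energy metabolism.

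The sequences that carried these motifs are shown first for 8 members, each with 50 bp on either side of the summit, on the plus strand of GRCm38 (RefSeq), with motif matches in capitals. They were taken from the 18 windows that held at least 1 of 4 motifs (MEF2, the E-box CAGCTG, the MCAT element CATTCC or the ERR site CAAGGTCA, on either strand) and touched no exon, from members that were among the strongest or lay nearest to muscle genes with at least 2 members. All of these windows with a MEF2 match are printed, but only some of those without. The printed windows therefore overstate the share with MEF2. Those near Rps6ka2, Pkdcc and Bod1, with an E-box or MCAT element, were stronger than the printed windows with an E-box and were left out. The window near Lmbr1 lies in an intron at chr5:29363654-29363754, that near Smyd2 (a lysine methyltransferase of muscle proteins) between genes at chr1:189960653-189960753, that near Bzw2 in an intron at chr12:36137383-36137483, and that near Naa35 in an intron at chr13:59625014-59625114. The window of Trdn (triadin, which holds the calcium release channel in place) lies in an intron at chr10:33092568-33092668. Those of Ttn (titin) and Cacna2d1 (a calcium channel subunit) lie in introns at chr2:76981847-76981947 and chr5:15966916-15967016, and that of Hrc (a calcium-binding protein of the sarcoplasmic reticulum) lies 70 bp from its start at chr7:45335170-45335270.
Lmbr1: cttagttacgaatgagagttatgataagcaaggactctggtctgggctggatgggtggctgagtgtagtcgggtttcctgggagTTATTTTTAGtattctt
Smyd2: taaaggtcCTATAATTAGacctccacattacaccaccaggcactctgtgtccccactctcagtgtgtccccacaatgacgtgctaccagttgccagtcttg
Bzw2: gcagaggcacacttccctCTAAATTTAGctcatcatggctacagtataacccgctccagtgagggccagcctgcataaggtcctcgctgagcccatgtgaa
Naa35: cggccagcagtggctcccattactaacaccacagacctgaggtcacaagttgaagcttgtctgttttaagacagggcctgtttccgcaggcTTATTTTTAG
Trdn: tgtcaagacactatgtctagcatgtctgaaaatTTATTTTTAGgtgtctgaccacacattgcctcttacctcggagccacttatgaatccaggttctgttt
Ttn: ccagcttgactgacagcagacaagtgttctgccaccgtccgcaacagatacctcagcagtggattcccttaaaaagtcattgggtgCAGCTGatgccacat
Cacna2d1: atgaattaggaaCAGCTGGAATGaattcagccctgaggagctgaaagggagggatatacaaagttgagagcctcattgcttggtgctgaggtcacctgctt
Hrc: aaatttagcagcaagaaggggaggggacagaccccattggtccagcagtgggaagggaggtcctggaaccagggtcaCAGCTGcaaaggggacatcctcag
The windows of Lmbr1, Naa35 and Trdn carry the same MEF2 site, and those of Smyd2 and Bzw2 carry others. The Ttn and Hrc windows carry the E-box, and in the Cacna2d1 window an E-box runs into an MCAT element.

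The MEF2 motif was the sequence feature that set the shared regions apart most clearly. A match to the MEF2 consensus lay within 100 bp of the summit in 297 of 1379 members, or 21.5% (exact binomial 95% interval 19.4 to 23.8, counting error only). All merged regions had 2.14%, a 10.1-fold lower share, and the regions private to any of the other 27 pairs of tissues had 2.07%. The share was also above that of regions found in muscle alone (8.40%, 7.93 to 8.89, n = 12955) and in heart alone (9.07%, 7.96 to 10.3, n = 2437). Members had to pass in 4 libraries, but muscle-only and heart-only regions in 2. When 1 state of each tissue sufficed, the regions shared by muscle and heart had 10.7%. That was closer to the share of either tissue alone, and the part of the number of libraries in the difference was not tested.

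Among the 28 pairs of tissues the muscle and heart pair had the highest MEF2 share. The next was brown adipose tissue with heart at 8.47%, but from 59 regions and with an interval of 2.81 to 18.7. Of the pairs with over 100 regions, the next were heart with kidney at 7.41% and muscle with kidney at 6.82%. The 3 pairs with more private regions were at 1.90% (liver with kidney, 3891 regions), 1.48% (both adipose tissues, 2896 regions) and 1.58% (spleen with lung, 2025 regions).

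**Figure D1:**
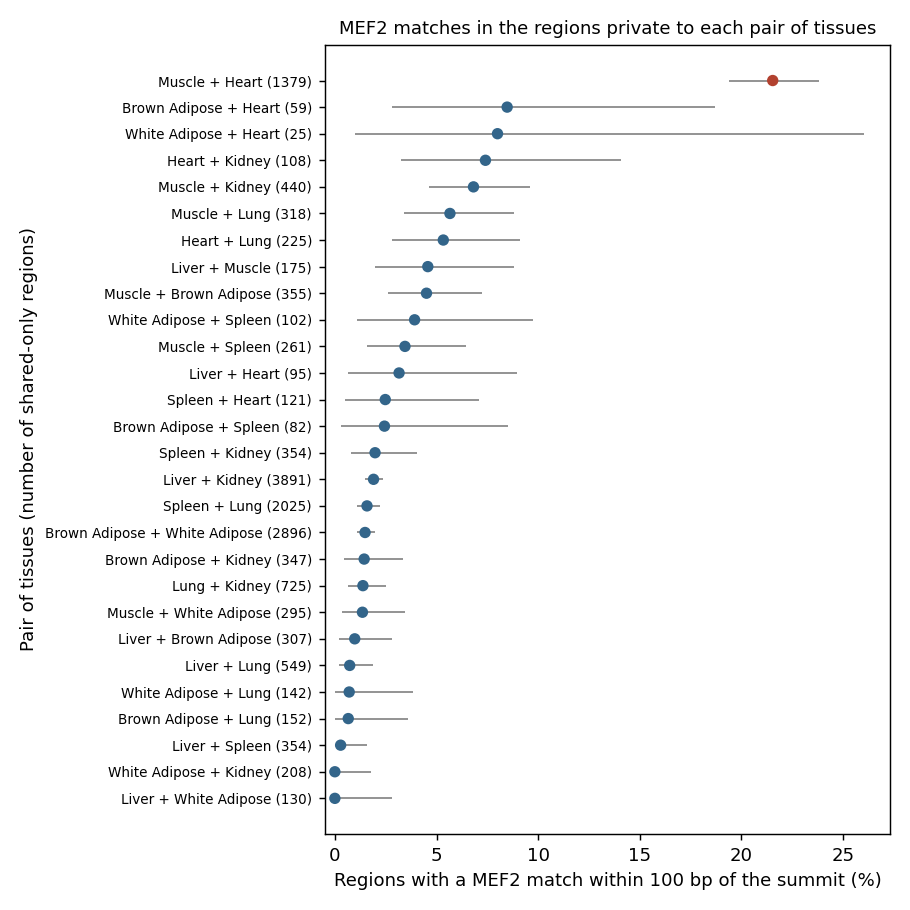
Share of regions with a MEF2 match within 100 bp of the summit (%, horizontal axis) for the regions private to each of the 28 pairs of tissues, with the number of regions in brackets. Bars are exact binomial 95% intervals for counting error, and the muscle and heart pair, in red, sits at 21.5% while all other pairs are at or below 8.47%.

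The MEF2 share fell in steps as more tissues shared a region. Of the 48326 regions present in all 4 muscle and heart sets, the 1379 with no peak elsewhere are the members. With peaks in 1 other tissue (1616 regions) the share was 16.5%, and with 2, 3, 4 and 5 other tissues it was 11.1%, 7.04%, 4.83% and 3.19%. In the 30079 regions with a peak in all 6 other tissues it was 1.31%. Neighbouring steps had 95% intervals that did not overlap. The steps also differed in base composition and position. Regions in all 16 sets had a median GC content of 58.7%, and 64.6% of them lay within 3000 bp of a start. The members were at 48.8% and 25.7%. The steps were not split by GC content, and its part in the descent was not tested. The searched window sat on the strongest summit of all 16 libraries, so in shared regions it could be that of another tissue. The part of this in the descent was not tested either. The E-box CAGCTG showed no such descent: it was at 21.4% in the members, between 22.1% and 24.5% with 1 to 5 other tissues, and at 15.3% with all 6.

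**Figure D2:**
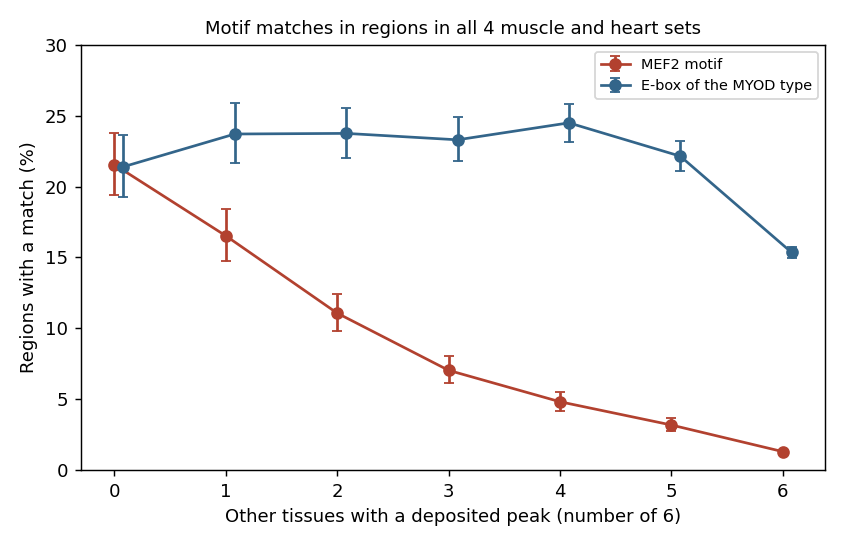
Share of regions with a MEF2 motif (red) or an E-box CAGCTG (blue) within 100 bp of the summit, in %, against the number of other tissues with a deposited peak, for regions in all 4 muscle and heart sets; 0 on the horizontal axis are the members. Error bars are exact binomial 95% intervals, and the MEF2 share runs from 21.5% down to 1.31%.

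The MEF2 difference held within subsets of the members. It was 19.4% within 3000 bp of an annotated start (355 members) and 22.3% farther away (1024 members), against 1.86% and 2.22% in all merged regions. The motif is rich in A and T, so base composition moves with it. In the bins of lowest, middle and highest GC content, of about equal size over the merged regions, the members had 35.5%, 17.0% and 9.23%, against 4.34%, 1.38% and 0.519% of all merged regions. The share was higher among stronger members, from 10.8% of the 344 weakest through 69 of 345 and 25.5% to 29.9% of the 345 strongest. It was also higher on the muscle side, at 26.7% of the 460 members that ranked highest in muscle relative to heart and 15.3% of the 459 at the heart end.

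The 321 matches took 32 spellings, counting a site and its reverse complement together. The most frequent were CTAAAAATAA in 38 members, CTAAAAATAG in 30 and CTATAAATAG in 28. The first is the site in the Lmbr1, Naa35 and Trdn windows, read on the other strand. A second match was present in 21 members, counting members with at least 2. Of the matches, 50.5% had their centre within 50 bp of the summit, a share near that of an even spread over the window. In the other pairs it was 32.2% of 317 matches, which were scarcer at the summit. The 20 bp before and after it held 7 and 17 of those centres, against 49 from 60 to 40 bp before it. The matches of the members were not most frequent at the summit itself either. There the 20 bp before it held 23 match centres and the 20 bp after it 19, while the bin from 40 to 60 bp after it held 50.

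Of the other muscle motifs, some were higher by less and some were not higher. CAGCTG was found in 21.4% of members against 15.1% of the other pairs, and the muscle-only regions were close behind at 19.4%. CAAGGTCA was found in 3.55% against 1.95%, and TGACAG, the core of MEIS sites, in 23.6% against 15.9%. In heart-only regions CAAGGTCA and TGACAG were at 2.79% and 20.3%, with intervals that overlapped those of the members. Muscle-only regions had 1.65% and 19.6%. The NKX2 core CACTTNA was found in 13.1% against 10.9%, and the AP-1 site TGANTCA in 11.2% against 8.04%. The CArG site of the muscle factor SRF was found in 1.38% against 0.957%, with overlapping intervals. CATTCC was found in 14.6% (12.8 to 16.6) against 12.5%, whose upper limit of 13.0335 lay inside the interval of the members, so the intervals overlapped. The T-box core AGGTGT was found in 9.50% of members and 11.4% of the other pairs, the E-box CACCTG in 13.6% and 14.9%, and TCAGGTT in 3.55% and 3.40%, with overlapping intervals for each. The GATA core AGATAA was in 152 members, or 11.02%, above the other pairs at 8.40% and muscle-only regions at 7.83% but below heart-only regions at 16.7%. None of the MEF2, E-box, MCAT and ERR elements was found in 677 members (49.1%), whereas 72.6% of all merged regions had none of them.

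Some motifs of other lineages were rarer in the members than in the other pairs, but this was not particular to the members. The C/EBP core TTGCNNAA, bound by factors of liver and fat, was in 6.60% of members and 14.5% of the other pairs. It was in 7.36% of muscle-only, 7.39% of heart-only and 27.4% of both-adipose regions. The ETS variant GAGGAAGT, bound by the blood cell factor PU.1, was in 0.870% and 2.40%. Muscle-only regions had 0.911% and heart-only regions 1.60%. The core of CTCF, which shapes chromosome loops in all lineages, was in 1 member against 0.949% of all merged regions. It was also rare in muscle-only (0.108%), heart-only (0.123%) and both-adipose regions (0.0691%). These matches describe letters in a window, and binding was not measured.

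Most members lay away from gene starts. Within 3000 bp of an annotated start (GENCODE vM21) lay 25.7% of them (23.5 to 28.1), close to 23.6% of all merged regions and 24.2% of the other pairs. Regions of muscle alone and heart alone were at 20.4% and 20.1%. Outside this window, 643 members were intronic, 328 intergenic and 53 exonic, and the median distance to a protein-coding start was 15.9 kb. Members were 404 bp wide at the median against 170 bp for all merged regions, and 391 bp for the other pairs. Repeat-masked sequence took 8.91% of their windows on average, against 14.9%. They lay on every autosome and 21 were on the X chromosome.

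Each member was given to the protein-coding gene with the nearest start, and 1015 of 21911 genes (4.63%) received at least 1. Of these, 795 received a single member. Genes of striated muscle received far more: 44.1% of the sarcomere list (15 of 34 genes), 56.7% of the calcium and membrane list (17 of 30), 12 of 30 muscle regulators and 33.3% of the cardiac-sided list (10 of 30). The energy list had 6 of 30 genes with a member and the fasting response list 3 of 30. Only 2 of 30 skeletal-sided genes, 6.67%, had a member, among them Cacna1s, the voltage sensor of skeletal fibres. Of these 30, 26 (86.7%) were nearest to a muscle-only region, against 23.0% of all protein-coding genes. Sarcomere genes were also often nearest to regions of 1 tissue. Of them, 58.8% were nearest to a muscle-only and 38.2% to a heart-only region, against 23.0% and 7.47% of all protein-coding genes. Of the cardiac-sided genes, 63.3% were nearest to a heart-only and 26.7% to a muscle-only region. An excess at such genes was therefore not particular to the members. The muscle-only and heart-only sets, with 12955 and 2437 regions, are larger than that of the members. Of the endothelial, smooth muscle, immune, adipocyte and hepatocyte lists, each of 10 genes, no gene had a member. In the fibroblast list 1 of 10 genes (Twist2) and in the Schwann cell list 1 of 10 (Pmp22) had 1. Lists of 10 genes are too short to tell none or 1 from the 4.63% of all genes.

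**Figure D3:**
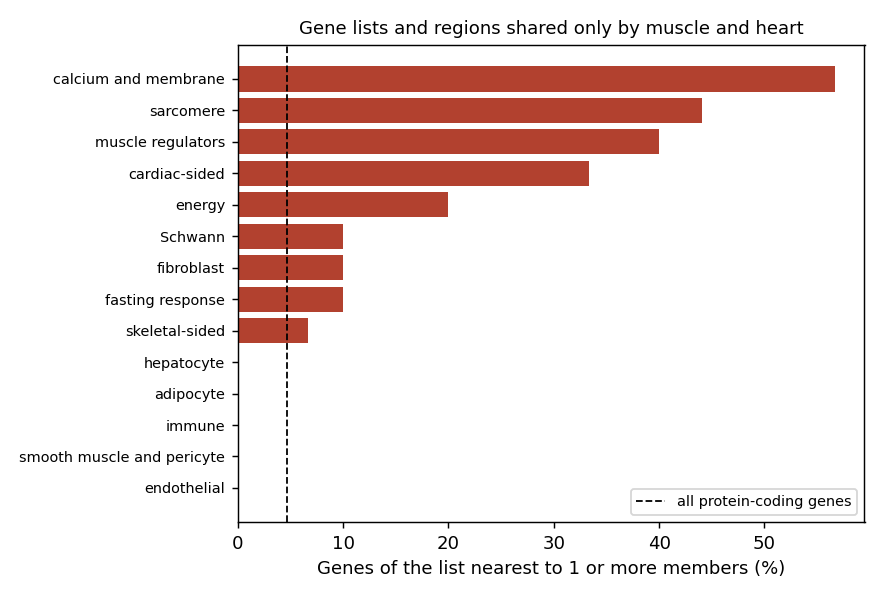
Percentage of the genes of each list that were the nearest protein-coding gene of at least 1 member. The dashed line marks 4.63% for all protein-coding genes. The calcium and membrane list reached 56.7%, and 5 of the 7 lists of other cell types, of 10 genes each, had none.

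Long genes and genes in open surroundings can receive more regions, so the members were also set against all merged regions nearest to the same genes. Of 2550 merged regions nearest to sarcomere genes, 53 (2.08%) were members, against 0.181% of all merged regions. Without Ttn the share was 1.23% (28 of 2282). It was 1.43% for calcium and membrane genes, 0.534% for muscle regulators, 0.509% for cardiac-sided genes and 0.443% for energy genes. For the skeletal-sided and fasting response lists it was 0.233% and 0.130%, near that of all merged regions. Many muscle promoters were no members because another tissue had a peak: 32 of 34 sarcomere genes had a region in all 4 sets within 3000 bp of a start, but 9 had a member there. Acta1 (skeletal actin) is an example, with promoter ranks of 93.1 and 94.4 in white adipose tissue beside 93.7 and 92.2 in muscle. It was named after its values were seen.

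Ttn, which encodes titin, stood first with 25 members, or 9.33% of the 268 merged regions nearest to it. They ran over 223 kb, 14 with their summit in an intron and 11 in an exon, and 13 of them formed an unbroken series at chr2:76885888-76955245 with gaps between neighbours of at most 12323 bp. The member at the start, chr2:76981717-76982096, whose E-box is shown above, lay 558 bp from a coding start in an intron. Its rank was 91.4 and 90.8 in fed and fasting muscle and 89.3 and 88.0 in fed and fasting heart, and its fold enrichment was 3.89, 4.05, 3.37 and 3.05. It was about equally strong in all 4 libraries. It had the highest mean rank of the 25, although in each library another Ttn member had a higher fold enrichment. The median rank over the 25 was 66.1 and 69.1 in muscle and 67.9 and 69.6 in heart. Median fold enrichment was only 2.16, 2.24, 2.46 and 2.30, against 4.70, 5.19, 3.42 and 3.10 over all members. A MEF2 match was found in 1 of the 25.

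**Figure D4:**
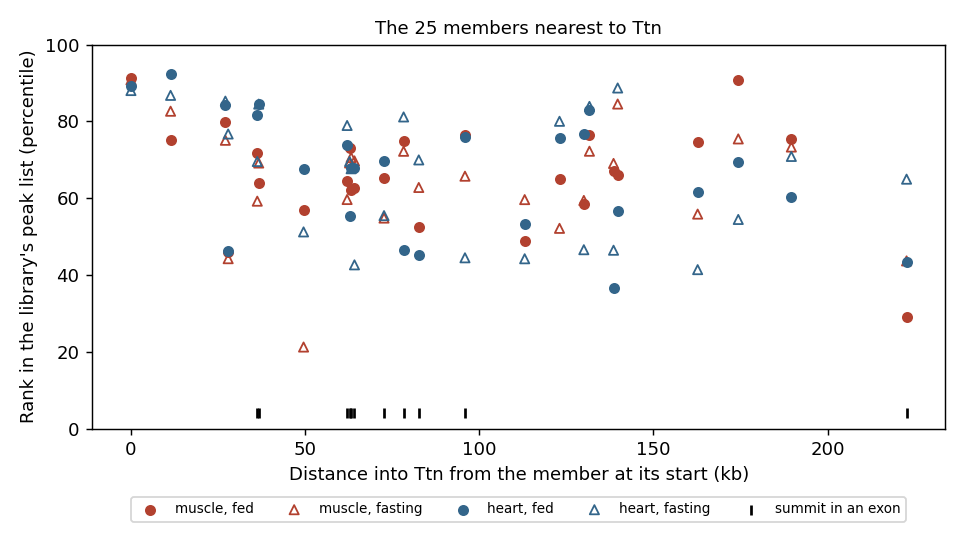
Rank of the 25 Ttn members in the 4 libraries (percentile of the library's deposited regions by p, 100 the strongest) against the distance in kb from the member at the gene's start. Filled circles are fed and open triangles fasting, red is muscle and blue heart, black ticks mark summits in exons; the member at 0 kb lies between 88.0 and 91.4 in all 4 libraries.

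Further sarcomere genes had fewer but often stronger members. A MEF2 match was found in 8 of the 53 members nearest to sarcomere genes (15.1%) and in 6 of the 42 nearest to calcium and membrane genes (14.3%), against 21.5% of all members; Actn2, Csrp3 and Sgca had none. Unc45b, a chaperone that folds myosin, had a member over its start at chr11:82910471-82911449 with ranks of 96.1 and 96.9 in fed and fasting muscle and 90.1 and 85.7 in heart. Xirp2, an actin-binding protein of the intercalated disc and the muscle-tendon junction, had 2 members, both with a MEF2 match. The stronger, in an intron, ranked 79.2 and 89.7 in muscle and 90.3 and 84.6 in heart. Actn2 (alpha-actinin of the Z-disc) had 3 members, and Myot (myotilin), Myom2 (an M-band protein) and Csrp3 (muscle LIM protein) had 3 each. The best Actn2 member ranked 80.3 and 88.8 in muscle and 91.8 and 90.2 in heart. That of Csrp3, which is expressed most in heart and slow fibres, ranked 64.3 and 67.9 in muscle and 91.7 and 88.5 in heart.

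The membrane and calcium genes had 42 members. Trdn had 9, all inside the gene and most of them weak, with mean ranks over the 4 libraries from 34.2 to 78.4. The strongest, whose MEF2 site is printed above, ranked 88.4 and 85.3 in fed and fasting muscle and 74.1 and 66.0 in heart. Sgca, the alpha-sarcoglycan that ties the dystrophin complex to the membrane, had 3 members among the 8 merged regions nearest to it. The member over its start, chr11:94973333-94973642, was even across the libraries, at 92.8 and 93.5 in muscle and 92.5 and 92.6 in heart. Dmd (dystrophin itself) had a member 106 bp from a start at 90.6 and 90.8 in muscle and 83.9 and 90.0 in heart.

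Ion channel and trafficking genes followed. Kcnj11, the pore of the ATP-sensitive potassium channel, had a member over its start at 91.3 and 91.6 in muscle and 92.2 and 91.2 in heart. Hrc had 2, and the one whose E-box is shown was higher in muscle (93.7 and 93.0) than in heart (82.0 and 75.7). Cacna2d1 had 4 members, and its strongest leaned the other way, at 83.5 and 85.1 in muscle and 89.0 and 91.4 in heart. Popdc3, a cAMP-binding membrane protein, had 4, of which the strongest carried a MEF2 match and had the high fold enrichment of 19.3 and 21.4 in muscle beside 4.56 and 5.12 in heart. Dysf (dysferlin, for membrane repair), Jph1 (a junctophilin that joins the reticulum to the surface membrane), Sgcd and Slc8a1 (the sodium-calcium exchanger) also had 2 or 3 members each.

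Among the regulators, Rbm20 had 6 members. It encodes the splicing factor that shortens the titin transcript, and 2 of its members held a MEF2 match. The strongest, in an intron, ranked 90.4 and 93.5 in muscle and 80.5 and 89.6 in heart. Rora, a nuclear receptor of the clock, had 4; Sox6, which represses slow fibre genes, and Celf2, a splicing factor, had 3 each; Tead1, the MCAT factor, and Ppp1r3a, the glycogen-targeting subunit of a phosphatase, had 2. Of the cardiac-sided genes, Pln (phospholamban), the brake of the calcium pump, had 2. The Pln member with the higher mean rank was at 85.4 and 73.7 in muscle and 70.1 and 46.1 in heart.

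In the energy list, Ppargc1a, the coactivator of mitochondrial genes, had 2 members, and these lay 428542 and 97785 bp from its start. Ckm (muscle creatine kinase) had 1, named after its values were seen, with a MEF2 match and ranks of 93.6 and 92.5 in muscle and 89.8 and 89.4 in heart. Slc25a4, which carries ATP out of the mitochondria of heart and muscle and was on none of the lists, had 6 members among 40 merged regions nearest to it. Of the fasting response list, the ubiquitin ligase genes Fbxo32 and Trim63, known for muscle atrophy, and Lpin1 had 1 member each. The Trim63 member ranked 69.1 and 72.1 in fed and fasting muscle and 48.2 and 78.8 in heart, and the Fbxo32 member 75.8 and 63.3 in muscle and 78.4 and 86.9 in heart.

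Several genes outside the lists gathered many members. Mlip, whose product binds lamin A in muscle and heart, had 8 of 144 merged regions, and its strongest ranked 96.1 and 95.8 in muscle and 84.2 and 94.2 in heart. Pkia, an inhibitor of protein kinase A, had 6, including 2 side by side near a start with mean ranks of 93.9 and 91.3. Eef1a2, the elongation factor that muscle, heart and neurons use in place of its common form, had 5 of only 14 merged regions (35.7%), 3 of them with a MEF2 match. Asb14 and Asb15, ankyrin and SOCS box proteins, had 5 each, and those of Asb14 all lay within 1467 bp of a coding start. Ccdc141, the neighbour of Ttn, had 5 with mean ranks up to 92.5, and Arhgap20 and Sorbs2 had 5 each. No member of Mlip, Pkia, Slc25a4, Ccdc141 or Sorbs2 held a MEF2 match.

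The strongest member was intergenic, 8922 bp from the start of Golga7b, at chr19:42237628-42239030. It held a MEF2 match and ranked 97.8 and 96.6 in muscle and 98.5 and 97.1 in heart, with fold enrichment of 14.2, 13.6, 11.4 and 7.93. Next came the start of Smco1, a membrane protein gene, at 96.4, 94.2, 95.8 and 95.5 in the same order. Homer1, a scaffold of calcium signalling, followed with an intronic member 92073 bp from its start at 97.7, 97.2, 93.4 and 91.8, and no motif of those searched. All of the 15 strongest members ranked 87.9 or higher in each of the 4 libraries.

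Ranks are percentiles by p within a library's deposited regions, 100 being the strongest. The median rank of the members was 77.0 and 75.8 in fed and fasting muscle and 77.0 and 74.5 in heart, and their mean rank over the 4 libraries was 72.9 at the median against 81.3 for the other regions in all 4 sets. The heart values rest on fewer tags: the summits of members held a median of 27 and 28 tags in fed and fasting heart, computed from fold and p, against 69 in fed muscle (solvable for 1377 members) and 112.5 in fasting muscle (1312 members). Ranks of weak heart members are therefore coarse, and many share a value.

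Members that differed between the tissues were common. The mean rank was at least 20 points higher in muscle for 186 members (13.5%), against 4.17% of all regions in the 4 sets. It was at least 20 points higher in heart for 266 (19.3%), against 17.8%. The heart lists run to weaker peaks than the muscle lists, so the lowest rank of a member was 31.1 in heart but 0.0503 in fasting muscle. When ranks were taken only among regions with q under 0.01, a choice made after seeing the data, 456 members (33.1% against 12.6%) were higher in muscle and 172 (12.5% against 12.6%) in heart. The excess of muscle-sided members was seen on both scales, and the part of the tag numbers in it was not tested. Members and background were not matched for rank: the median mean rank was 72.9 for members and 81.3 for the other regions in all 4 sets. The fed and fasting comparisons below were not matched for rank either, and its part was not tested.

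The extremes by this difference were chosen for it and are given as a description. On the muscle side, Cdh13 (T-cadherin, the adiponectin-binding cadherin) had an intronic member at 93.2 and 84.0 in muscle and 45.5 and 31.2 in heart. Ptgis, the prostacyclin synthase gene, had an intergenic one with a MEF2 match at 92.2 and 97.8 against 44.0 and 54.9. On the heart side, Helt ranked 19.7 and 2.44 in muscle and 83.9 and 91.0 in heart, and Baz2b 27.1 and 0.941 against 92.1 and 85.8. Gatb, a subunit of the mitochondrial glutamyl-tRNA amidotransferase, was at 14.4 and 1.13 against 82.9 and 76.8. A MEF2 match was in none of the 5 heart-sided extremes and in 2 of the 5 on the muscle side, beside 21.5% of all members. With 5 members on each side these counts cannot be told apart from that share.

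**Figure D5:**
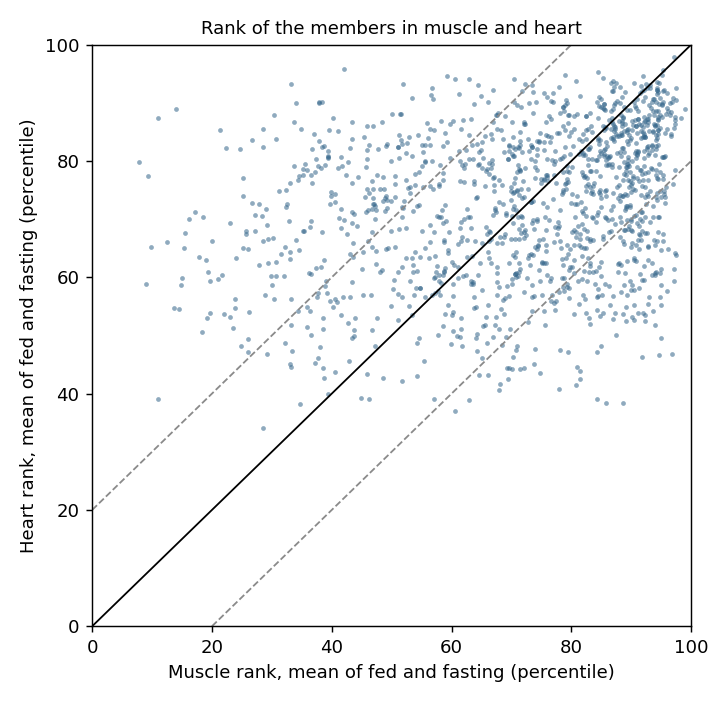
Rank of each of the 1379 members in muscle (horizontal) and heart (vertical), each the mean of the fed and fasting percentile ranks. The solid line marks equal ranks and the dashed lines a difference of 20 points; 186 members lie below the lower dashed line or on it and 266 above the upper one or on it, and heart ranks start at 34.1 because the heart lists run to weaker peaks.

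Between fed and fasting muscle the members differed little. The median difference of fasting minus fed was −0.74 points (−1.27 for all other regions in both muscle sets). At least 20 points higher in fasting were 95 members (6.89%, against 6.72% of all regions in both muscle sets), and at least 20 points lower were 98 (7.11%, against 11.9%). With ranks among regions of q under 0.01 the median was 1.57, with 162 members (11.7% against 12.2%) higher and 66 (4.79% against 7.29%) lower, so the sign and the balance of calls depended on the ranking.

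In heart, members stood lower in fasting more often than other regions. The median difference was −2.58 points (−0.11 for the others), and 187 members (13.6%) were at least 20 points lower, against 7.86%. Those at least 20 points higher were 110 (7.98%, against 6.91%). On the other ranking the median was −1.66, with 259 members (18.8% against 10.9%) lower and 210 (15.2% against 14.2%) higher. Each state is 1 library per tissue, so a difference between libraries cannot be told apart from one between states.

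In both tissues together, 10 members (0.725%, against 0.544% of all regions in the 4 sets) were at least 20 points higher in fasting and 16 (1.16%, against 0.751%) at least 20 points lower. Wnk2, a kinase gene of salt transport, had an intronic member that went from 25.3 to 81.5 in muscle and from 37.2 to 69.8 in heart. Dnajb12, a chaperone gene of the endoplasmic reticulum, had one that went from 56.9 to 91.6 and from 54.1 to 86.1, and Plekha1 one with a MEF2 match from 47.3 to 77.8 and from 50.2 to 82.4. In the other direction, the member near Svs2 went from 78.1 to 38.9 in muscle and from 82.6 to 38.2 in heart, and that in Chd9, a chromatin remodeller gene, from 72.3 to 38.9 and from 75.2 to 38.2. None of these 5 genes is on the fasting response list, and they were chosen for these differences.

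Membership turned on thin margins at its edges. The weakest entry of the member near Cdh13 was at −log10 q 2.01, in fasting heart, whereas the region near Mical3 fell out with 1.9966 in fed heart and that near Klf7 with 1.9965 in fed muscle. A further 2553 regions with no peak in other tissues were in 3 of the 4 sets, with heart the missing tissue in most (937 lacked fed and 1063 fasting heart). A MEF2 match was in 282 of them, or 11.05%, below that of the members. On the other edge, of the 1616 regions with peaks in exactly 1 other tissue, 459 (28.4%) had them in brown adipose tissue, 291 in spleen, 254 in lung, 224 in liver, 213 in white adipose tissue and 175 in kidney. Their MEF2 share ran from 11.8% with lung to 21.1% with kidney, and it was 17.2% with brown adipose tissue.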

How the data were processed

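The deposited data were 16 MACS2 narrowPeak lists, 1 for each tissue and state. According to the methods of the study and the labels, the authors trimmed reads, aligned them with Bowtie2 to GRCm38, removed unmapped and duplicate reads, applied the Tn5 offset and ran MACS2. The lists were capped by p at a fixed length. The deposited fold enrichment is a ratio of tags at the summit to the local expectation, as the authors computed it per library. For significance, the deposited values are −log10 p-values and −log10 q-values from the authors' MACS2 test. Only these lists were analysed, and total read numbers are not given in the sources used here, so total library depth is unknown. The background solved from fold and p differed between libraries, from 2.8 tags in fed liver to 12.8 in fed brown adipose tissue. How these tag numbers bear on which peaks a list lacks was not tested. Tags at summits were solved from the deposited fold and p.

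Rows of 1 region were combined (strongest p), and regions with −log10 q of at least 2 were merged at 1 bp overlap. Ranks are percentiles by p over a library's regions, and a difference of 20 points was called. Starts come from GENCODE vM21 (the study used a later release, not used here), and coordinates are 1-based. Motifs were searched on both strands 100 bp each side of a region's strongest summit by rank among all 16 libraries. For members this is the strongest summit of the 4 muscle and heart libraries. Promoter means within 3000 bp of any start. Intervals are exact binomial (Clopper-Pearson) 95% intervals.

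Members and gene lists were chosen with earlier results of these data known. Genes named are list genes nearest to 2 or more members, the 15 strongest members, the 10 genes with most members, the 5 extremes in each direction between tissues and with fasting in both, the 10 strongest members within 1000 bp of a coding start and those at the q threshold; list genes with 1 member were named after their values were seen. Some of these genes are not reported here. Alternatives were a stricter q, the 50000 strongest regions per library, presence in 1 state, other windows and other rankings. Functions were tested on simulated data. Python 3.11.15, numpy 2.4.6, pandas 2.3.3 and scipy 1.17.1 were used.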

Additional observations from a re-analysis of the deposited data

How the results depend on the processing

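There were no replicates, so no library could be left out within a group. No paired analysis was possible because no test was run and each tissue and state had 1 library. The number of members was 354 at q under 1e-06, 304 among the 50000 strongest regions of each library and 6302 when 1 state of each tissue sufficed, and the place of the pair among the 28 was 4 as reported, 3 with the 50000 strongest regions and 6 with 1 state. The MEF2 share was 26.3%, 28.6% and 10.7% under these settings and 10.2% within 50 bp of the summit. CATTCC was at 18.4%, 16.8%, 12.3% and 6.96%. CAGCTG was at 18.8% with 1 state and 11.8% within 50 bp, and CAAGGTCA at 2.57% and 1.81%. Members near a start were 30.5% at the stricter q and 31.9% among the strongest, 12.7% within 1000 bp and 19.3% for protein-coding starts. Sarcomere genes with a member were 9, 7 and 28 of 34 under the first 3 settings. The median fasting minus fed difference in muscle reversed to 0.393 with 1 state and to 1.57 with ranks within the set, and muscle minus heart reversed from 1.17 to −4.84 with 1 state and was 11.1 with ranks within the set (chosen after seeing the data). The causes were not tested. With the stricter q and with the 50000 strongest regions, muscle minus heart was 0.35 and 3.04, and fasting minus fed in heart was −1.42 and −1.21, from −2.58. In all, 52 of 79 values moved by less than the limit set for them. Heart summits held few tags, which limits the ranks of weak heart members.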
